A study of Mus musculus with 2 samples.

Results

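The genes described here encode enzymes of glycolysis in mouse skeletal muscle, read in single-nucleus RNA-Seq (snRNA-Seq) of the gastrocnemius/plantaris (GP) muscle. They were taken by gene symbol and are Hk2, Pfkm, Pfkfb3, Aldoa, Pgk1, Pgam2, Eno3, Pkm, Ldha and Ldhb, which makes 10 of the 27998 genes in the count table. The rule reads symbols and not values, although the genes were picked with earlier results of these data known, and all 10 were found and had counts in both libraries. The Ctrl library came from Net39 fl/fl mice that carry no Cre, and the cKO library from HSACreERT2;Net39 fl/fl mice, in which tamoxifen deletes Net39 (Plpp7, a protein of the nuclear envelope). Both groups were male mice of 5 months of age, examined 3 months after tamoxifen, which both received. The floxed line was founded in B6C3F1 zygotes and then crossed to other mouse lines. The Cre is driven by the human skeletal actin promoter and is active in muscle fibres and not in satellite cells, so nuclei of other cell types keep the gene in both groups. Nuclei of 3 muscles were pooled into 1 library per group. With 1 library per group no difference between Ctrl and cKO could be tested, and the intervals below describe counting error alone and say nothing of how far animals differ.

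Glycolysis splits glucose into pyruvate in the cytosol and yields ATP without oxygen. Hexokinase traps glucose, phosphofructokinase commits it, a bifunctional regulator (the Pfkfb family) sets the speed of phosphofructokinase through fructose 2,6-bisphosphate, and a run of lower enzymes carries the carbon to pyruvate, which lactate dehydrogenase exchanges with lactate. In skeletal muscle the pathway is strongest in fast glycolytic fibres and weaker in slow oxidative ones. Fibres are typed by their myosin heavy chain, with Myh7 in slow type I, Myh2 in type IIa, Myh1 in type IIx and Myh4 in type IIb fibres.

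Promoter windows of Pfkfb3, Ldha and Ldhb, the 3 members farthest apart between Myh4 and Myh2 nuclei of Ctrl, are shown so that what they hold can be seen beside the levels below. For Pfkfb3 and Ldha, which have another window as well, the windows shown lie near more annotated transcript starts. They were taken from RefSeq on GRCm38.p6, 5′ to 3′ on the strand of the gene, ending before annotated exon sequence, and capitals mark ACGTG (the core letters of the hypoxia response element) on either strand. The Pfkfb3 window is chr2:11502102-11502340, the Ldha window chr7:46845554-46845803 and the Ldhb window chr6:142507958-142508207.
Pfkfb3 promoter, minus strand: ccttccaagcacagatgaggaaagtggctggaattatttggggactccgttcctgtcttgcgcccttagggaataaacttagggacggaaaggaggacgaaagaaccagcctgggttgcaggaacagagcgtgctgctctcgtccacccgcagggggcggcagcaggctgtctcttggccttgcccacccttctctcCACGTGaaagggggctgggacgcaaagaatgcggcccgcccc
Ldha promoter, plus strand: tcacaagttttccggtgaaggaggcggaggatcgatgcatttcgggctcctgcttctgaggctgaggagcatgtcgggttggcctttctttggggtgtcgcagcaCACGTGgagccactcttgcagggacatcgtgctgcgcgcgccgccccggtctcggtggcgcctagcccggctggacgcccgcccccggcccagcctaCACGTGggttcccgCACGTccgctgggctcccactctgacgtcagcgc
Ldhb promoter, minus strand: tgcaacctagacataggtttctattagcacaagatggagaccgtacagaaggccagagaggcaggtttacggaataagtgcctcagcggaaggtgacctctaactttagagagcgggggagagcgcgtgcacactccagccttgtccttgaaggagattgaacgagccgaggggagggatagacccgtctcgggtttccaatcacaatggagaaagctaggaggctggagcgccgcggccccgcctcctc
The 5 matches of ACGTG in the Ldha window shown count both strands of its 2 CACGTG sites. The other Ldha window held 0 matches of ACGTG, and the Ldhb window held none. Over the promoters of all members (10 of 10 matched by symbol, 18 windows of the 250 bases before a start, some of them overlapping), ACGTG occurred in 7 members, namely Hk2, Pfkm, Pfkfb3, Aldoa, Pgk1, Pkm and Ldha. It stood in 10 of the 18 windows and in 16.6% of the 32851 promoters of the table. The E-box CACGTG, which contains ACGTG, was found in 3 of the 18 windows (Pfkm, Pfkfb3 and Ldha) and in 6.02% of all promoters. GGGCGG, the GC box, was found in 8 of the 18 windows (6 members) and in 32.7% of all promoters, and the general E-box CANNTG in 14 of the 18 (8 members) and in 66.2%. TATAAA and AAGGTCA, a site of nuclear receptors that bind as monomers, were found in 0 windows, against 12.4% and 4.08% of all promoters. These are matches of letters on both strands, with no measurement of binding.

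After quality filters and removal of likely doublets, 3526 Ctrl nuclei with a median of 2039.5 UMIs (unique molecules counted) and 3595 cKO nuclei with a median of 1612 UMIs were used. Only 5 barcodes occurred in both libraries. A nucleus was given a main myosin when at least 3 UMIs of the 4 myosin genes were read and one gene held at least 60% of them. This placed 21 Ctrl and 284 cKO nuclei in the Myh7 class, 172 and 329 in the Myh2 class, 311 and 395 in the Myh1 class and 2034 and 1489 in the Myh4 class. All 6 fibre markers looked for (Ttn, Neb, Ckm, Acta1, Ryr1, Trdn) were read in each of these classes. Levels are UMIs per 1000000 UMIs of the class (CPM) with an exact 95% Poisson interval. Markers of fibro-adipogenic progenitors (FAPs, connective tissue cells) also differed, at 135.3 CPM summed in Ctrl nuclei with a main myosin and 44.7 CPM in cKO, with all 6 markers read in each. Summed markers of smooth muscle (21.6 and 9.55 CPM), immune (32.9 and 19.5 CPM) and endothelial cells (38.4 and 26.4 CPM) were lower in cKO too, and those of satellite cells were not (9.46 and 11.0 CPM). Leaving out nuclei with 3 or more UMIs of markers of other cells gave a log2 ratio of cKO over Ctrl of 1.28 for Pfkfb3 in Myh4 nuclei. Over all main myosins it gave −0.68 for Aldoa, −0.87 for Pgk1 and 1.33 for Ldhb. With these nuclei kept the values were 1.29, −0.63, −0.87 and 1.30. FAP-marker nuclei, which held at least 3 FAP-marker UMIs and under 3 myosin UMIs (200 in Ctrl, 69 in cKO), served to read the level that free RNA of fibres, or these cells themselves, can give. The targeted gene Plpp7 read 49.7 CPM (Ctrl) and 45.1 CPM (cKO) in nuclei with a main myosin. In Myh4 nuclei it read 52.0 and 60.4 CPM (log2 ratio 0.22, −0.05 to 0.48). The paper reports reduced Net39 transcript in cKO GP muscle by bulk RNA-Seq. The deletion takes out the first exon, which tags from the 3′ end need not cover, so these counts do not check the labels. Whether this accounts for the Plpp7 levels here was not tested.

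**Figure D1:**
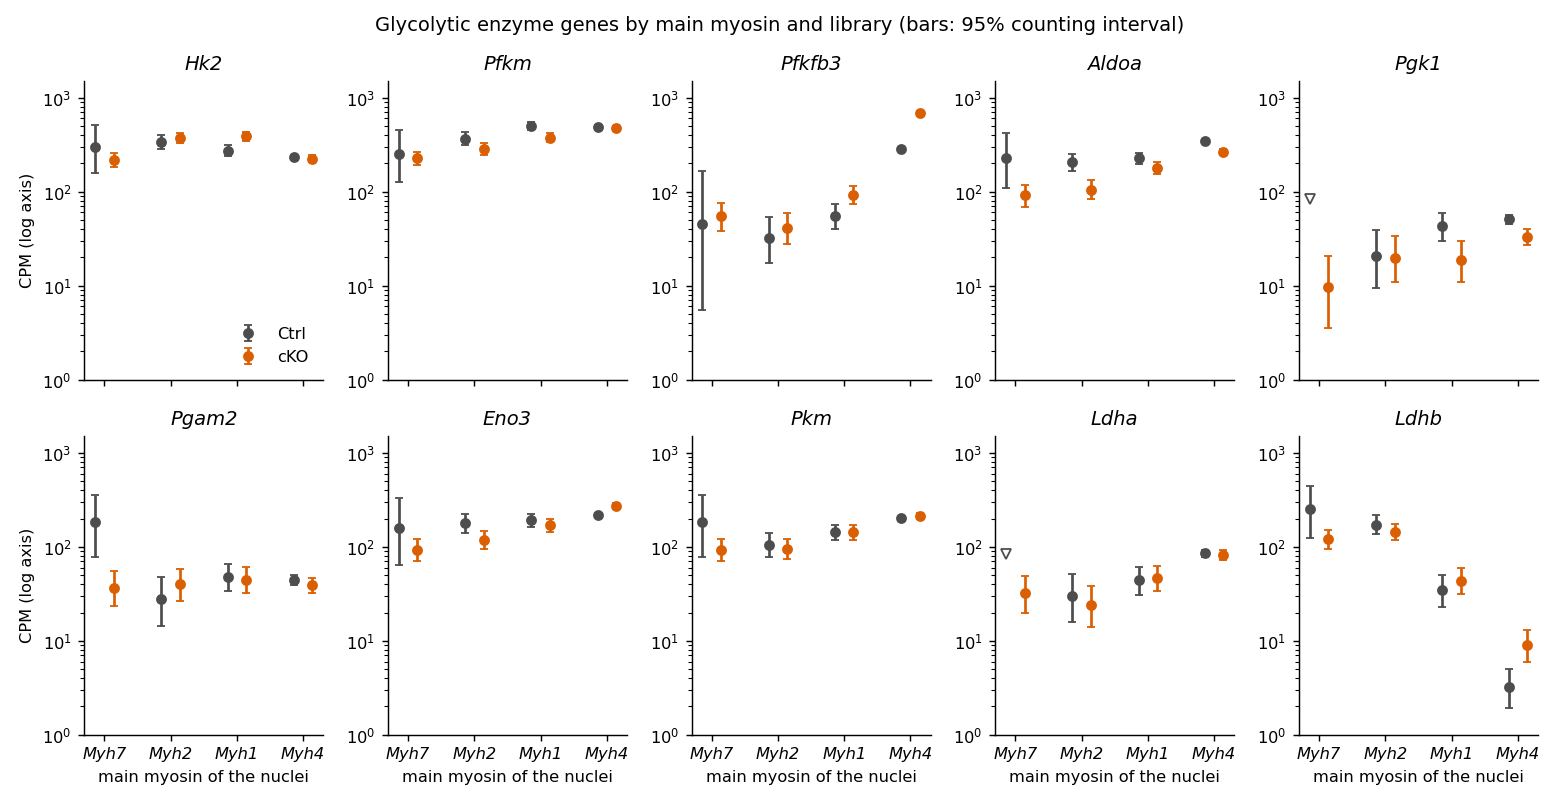
Level of each glycolytic gene (CPM, log axis) in nuclei with Myh7, Myh2, Myh1 or Myh4 as main myosin, for the Ctrl and the cKO library. Points are the level of 1 library, bars are exact 95% Poisson intervals, and an open triangle stands at the upper limit of a gene with 0 UMIs. In Myh4 nuclei Pfkfb3 stands at 281.1 CPM (Ctrl) and 686.8 CPM (cKO), and in each other class below 100 CPM, and Ldhb has the opposite order of classes.

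Between nuclei of the fast glycolytic Myh4 class and those of the Myh2 class, Pfkfb3 stood farthest up and Ldhb farthest down among the members. In Ctrl, 9 members had at least 100 UMIs over both classes. The remaining one, Ldhb, with 94 UMIs, was far lower in Myh4 than in Myh2 nuclei (log2 ratio −5.73). The size of this ratio is uncertain because Ldhb in Myh4 nuclei was not told apart from background. Of the 9, 6 were at least 1.5-fold higher in Myh4 nuclei (Pfkfb3, Aldoa, Pgk1, Pgam2, Pkm and Ldha), as were 23.7% of the 5403 genes read as deeply, and 0 were lower, as were 18.2% of genes. Pfkfb3, Pgk1, Pgam2 and Ldha had between 9 and 14 UMIs in Myh2 nuclei and passed the minimum through the larger Myh4 class, and the interval of Pgam2 (−0.14 to 1.66) includes 0, so that the count does not speak for the members. With doublets kept the counts were 5 higher and 1 lower, and with the main myosin read after thinning to 500 UMIs 4 and 1. In cKO, where the Myh7 class was large enough to use, 7 of 10 members were at least 1.5-fold higher in Myh4 than in Myh7 nuclei (23.3% of 3944 genes) and 1, Ldhb, was lower (13.2% of genes). Here Pgk1, Ldha and Pfkfb3 had 6, 20 and 34 UMIs in Myh7 nuclei and passed the minimum through the Myh4 class, so that this count does not speak for the members either. The counts were 4 higher and 0 lower with the main myosin read after thinning, and 6 and 0 with 80% for a main myosin, with 5 myosin UMIs and at 1000 to 3000 UMIs per nucleus. Totals without Malat1 and mitochondrial genes changed the genes higher and lower from 917 and 521 to 756 and 649. The summed level of the members in Ctrl was 1477 CPM (1365 to 1596) in Myh2, 1553 CPM (1470 to 1640) in Myh1 and 1959 CPM (1923 to 1995) in Myh4 nuclei, so that Myh4 stood above the intervals of Myh2 and Myh1, while the 21 Myh7 nuclei (1593 CPM, 1242 to 2012) could not be placed. In cKO the order was 975.4 CPM (899.5 to 1056) in Myh7, 1242 CPM (1161 to 1327) in Myh2, 1497 CPM (1419 to 1579) in Myh1 and 2306 CPM (2253 to 2360) in Myh4 nuclei, with no overlap between neighbours. Without Pfkfb3 the log2 ratio of the sum in Myh4 over Myh2 nuclei went from 0.41 to 0.22 (0.10 to 0.33) in Ctrl and from 0.89 to 0.43 (0.33 to 0.54) in cKO. The FAP-marker nuclei held 463.6 CPM in Ctrl and 366.6 CPM in cKO.

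Between the libraries the sum over the members was close when the classes were pooled, while classes and single members differed in both directions. Over all nuclei with a main myosin the summed level came to 1880 CPM for Ctrl and 1871 CPM for cKO. The log2 ratio of cKO over Ctrl was −0.01 (−0.04 to 0.03), and −0.18 (−0.23 to −0.14) without Pfkfb3. Within classes the sum was at 0.24 (0.19 to 0.28) in Myh4, −0.05 (−0.16 to 0.06) in Myh1 and −0.25 (−0.40 to −0.10) in Myh2 nuclei. Of the 10 members, Pfkfb3 and Ldhb were at least 1.5-fold higher in cKO over all main myosins, a direction in which 5.47% of the 7271 genes compared lay. Aldoa and Pgk1 were at least 1.5-fold lower, as were 9.43% of genes. With the main myosin read after thinning to 500 UMIs, 1 member was higher and 0 were lower by that much. Among all genes 398 were higher and 686 lower by that measure, and the split became 517 and 537 when totals were counted without Malat1 and mitochondrial genes and 512 and 541 when ratios were set against the median gene (−0.08). Totals without Malat1 and mitochondrial genes moved the median gene from −0.08 to 0.04 in Myh1 nuclei, where 118 higher and 168 lower genes became 176 and 115, and from −0.15 to 0.04 in Myh2 nuclei, where 60 and 185 became 117 and 85. With such totals, and also relative to the median gene (−0.55), pooled Aldoa came to lie inside 1.5-fold. With the cKO classes weighted as in Ctrl, pooled Ldhb (0.23) and pooled Aldoa (−0.41) were both inside 1.5-fold.

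**Figure D2:**
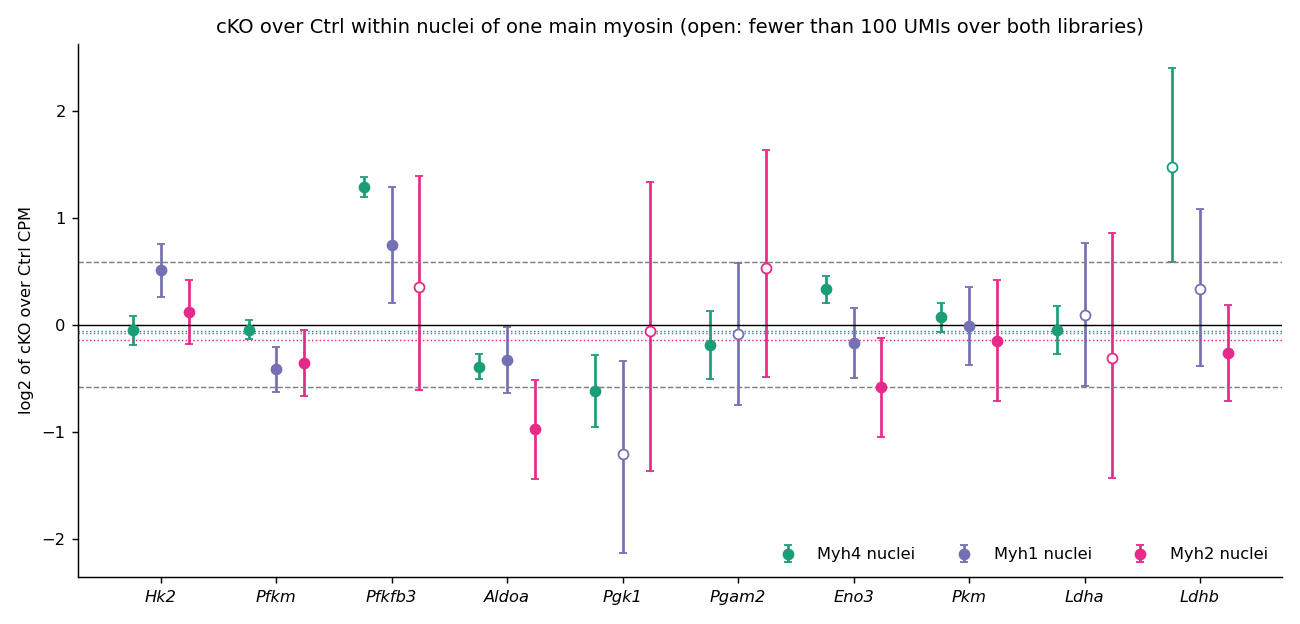
Log2 of the cKO level over the Ctrl level (CPM) for each gene within nuclei of each main myosin, with exact 95% counting intervals. Dashed lines mark 1.5-fold, dotted lines the median of all genes in that class, and open symbols genes with fewer than 100 UMIs. Pfkfb3 in Myh4 nuclei stands farthest above 1.5-fold among the filled symbols, at 1.29.

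Hk2 (chr6:82725025-82774454, minus strand, GRCm38) encodes the hexokinase of insulin-sensitive tissues, which phosphorylates glucose as it enters the fibre. Its level in Ctrl was 295.8 CPM in Myh7 (13 UMIs), 339.4 CPM in Myh2, 271.6 CPM in Myh1 and 232.7 CPM in Myh4 nuclei. In cKO the same classes had 219.1, 369.0, 386.6 and 224.7 CPM. Hk2 was therefore lower in Myh4 than in Myh2 nuclei of Ctrl, with a log2 ratio of −0.54 (−0.79 to −0.29), or −0.59 relative to the median gene, which is past 1.5-fold. Within the Myh4 class the libraries were close, with a log2 ratio of −0.05 (−0.18 to 0.08). Within the Myh1 class the cKO level was higher by 0.51 (0.27 to 0.76), which is under 1.5-fold on these totals and over it at 0.59 relative to the median gene and at 0.62 without Malat1 and mitochondrial genes. The log2 ratio in Myh4 nuclei minus that in Myh1 nuclei was −0.56 (−0.84 to −0.28). Hk2 made up at least 98.7% of the UMIs of Hk1 and Hk2 in every main myosin class of both libraries, and 55.6% in the Ctrl FAP-marker nuclei.

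Pfkm (chr15:98092589-98132451, plus strand) encodes the muscle subunit of phosphofructokinase, the committing step. In Ctrl it was at 250.3 CPM in Myh7 (11 UMIs), 364.7 CPM in Myh2, 497.9 CPM in Myh1 and 491.5 CPM in Myh4 nuclei, and in cKO at 225.5, 285.3, 373.5 and 476.9 CPM in that order. The level was thus higher in Myh1 and Myh4 than in Myh7 and Myh2 nuclei in both libraries. Myh7 and Myh2 nuclei of either library, and Myh1 and Myh4 nuclei of Ctrl, did not differ beyond their intervals. Within the Myh4 class cKO over Ctrl was −0.04 (−0.14 to 0.05), and within the Myh1 class −0.41 (−0.63 to −0.21), a difference between the classes of 0.37 (0.14 to 0.60). Its exons overlap those of Senp1 on the opposite strand and Gm26513 on the same strand, and how reads in the overlap were counted was not examined.

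Pfkfb3 (chr2:11471433-11554077, minus strand, 21 annotated transcripts) encodes a bifunctional enzyme with strong kinase activity that makes fructose 2,6-bisphosphate, the allosteric activator of phosphofructokinase. Its Ctrl level was 45.5 CPM in Myh7 (2 UMIs), 32.1 CPM (17.6 to 53.9) in Myh2, 54.8 CPM (40.1 to 73.1) in Myh1 and 281.1 CPM (267.7 to 295.0) in Myh4 nuclei. In cKO it was 54.4 CPM in Myh7, 41.2 CPM (27.6 to 59.1) in Myh2, 91.7 CPM (73.2 to 113.6) in Myh1 and 686.8 CPM (657.9 to 716.6) in Myh4 nuclei. Pfkfb3 was thus highest in the Myh4 class in both libraries, and the Ctrl and cKO intervals of that class were far apart, while those of the Myh1 class lay next to each other and those of the Myh2 class overlapped. FAP-marker nuclei read 63.4 CPM in Ctrl (19 UMIs) and 47.0 CPM in cKO (5 UMIs), so the levels in Myh7, Myh2 and Ctrl Myh1 nuclei were not above what nuclei of another cell type showed.

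Within the Myh4 class Pfkfb3 was 2.44-fold higher in cKO (2.29 to 2.61), a log2 ratio of 1.29 (1.20 to 1.38) that ranked 47 from the highest of 6291 genes. It was the 1 of 9 members to be 1.5-fold higher in this class, as were 4.28% of genes. Pgk1 was the 1 member to be lower by that much, as were 8.11% of genes. The median over the members (−0.0473) was close to that over all genes (−0.0535). Summed over the members the class was higher in cKO by 0.24 (0.19 to 0.28), and without Pfkfb3 it stood at −0.05 (−0.10 to −0.0019). In the Myh1 class Pfkfb3 was higher by 0.74 (0.21 to 1.29) on 46 and 84 UMIs, again the 1 member past 1.5-fold upwards among 6 (5.17% of 2283 genes), with 0 of 6 members past it downwards (7.36%). The Ctrl Myh1 level was not above that of FAP-marker nuclei and the cKO interval overlapped theirs (15.3 to 109.7 CPM), so the size of this ratio is uncertain. In the Myh2 class, with 14 and 29 UMIs, the log2 ratio of 0.36 ran from −0.61 to 1.39, so that no difference was detectable at this depth. The ratio in Myh4 nuclei exceeded that in Myh1 nuclei by 0.55 (−0.01 to 1.09) and that in Myh2 nuclei by 0.93 (−0.11 to 1.90), and both intervals include 0.

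Pfkfb3 was spread over many Myh4 nuclei. With each nucleus thinned to 500 UMIs, at least 1 Pfkfb3 UMI was seen in 232 of 2034 Ctrl nuclei (11.4%, exact interval 10.1 to 12.9) and in 430 of 1489 cKO nuclei (28.9%, 26.6 to 31.3). Without thinning the shares were 41.5% and 58.7%, although the cKO nuclei of this class were read less deeply (median 1669 against 2350.5 UMIs). FAP-marker nuclei, at median depths of 1246.5 and 1365 UMIs, had such a UMI after thinning in 6 of 200 (3.00%) in Ctrl and in 0 of 69 in cKO, which allows a share of up to 5.21%. Nuclei of mixed myosin read 157.2 CPM of Pfkfb3 in Ctrl and 151.1 CPM in cKO, and those with too few myosin UMIs to place 171.9 and 189.9 CPM. Among Myh4 nuclei, those with exactly 1 thinned UMI made up 9.69% in Ctrl and 22.4% in cKO, those with 2 made up 1.57% and 5.04%, and those with 3 or more 0.148% and 1.41%. The nucleus richest in Pfkfb3 held 0.910% of the UMIs of the class in Ctrl and 0.611% in cKO, so that no single nucleus carried the level.

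**Figure D3:**
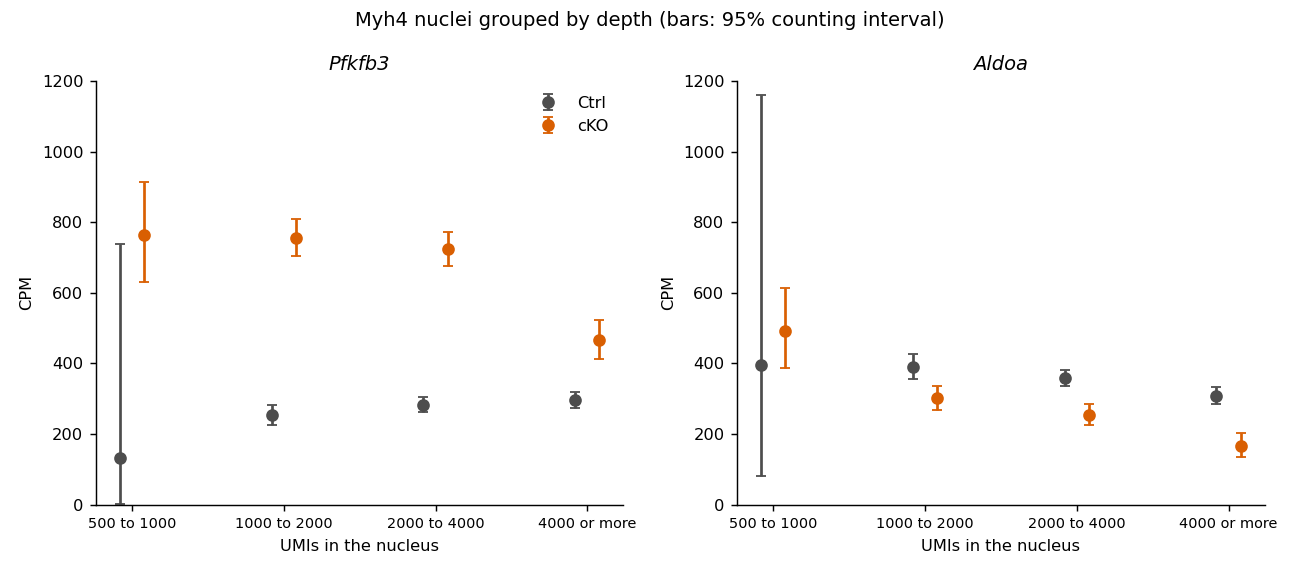
Level of Pfkfb3 and Aldoa (CPM) in Myh4 nuclei split by the number of UMIs in the nucleus, for Ctrl and cKO, with exact 95% Poisson intervals. Pfkfb3 is higher in cKO in each of the 3 bands above 1000 UMIs, at 755 against 253, 724 against 283 and 467 against 296 CPM, and Aldoa is lower in cKO in each of them.

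Depth was compared directly because the libraries differ in it. In Myh4 nuclei of 1000 to 2000 UMIs Pfkfb3 read 253 CPM in Ctrl against 755 CPM in cKO, in those of 2000 to 4000 UMIs at 283 and 724 CPM, and in those of 4000 UMIs or more at 296 and 467 CPM. The cKO level was above the Ctrl level in each of these bands and by the least in the deepest one, and depth was not matched within a band. The band under 1000 UMIs held 1 Pfkfb3 UMI in Ctrl and gives no comparison. No other isoform of the family was higher in cKO Myh4 nuclei, and none was past 1.5-fold with 100 UMIs. Of all UMIs of Pfkfb1, Pfkfb2, Pfkfb3 and Pfkfb4 (a count of molecules in a 3′ assay), Pfkfb3 took 56.5% (54.7 to 58.3) in Ctrl and 79.4% (77.8 to 80.9) in cKO Myh4 nuclei. Its share was 15.7% in Ctrl and 26.9% in cKO Myh2 nuclei. In Myh4 nuclei Pfkfb1 read 107.1 and 93.3 CPM (log2 ratio −0.20, −0.40 to 0.01) and Pfkfb4 107.9 and 84.6 CPM (−0.35, −0.56 to −0.14).

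Myh4 itself was read next to Pfkfb3 because the Myh4 transcript is a measure of type IIb RNA in any nucleus. Myh4 UMIs made up 215.6 CPM in Myh2 nuclei of Ctrl and 115.0 CPM in cKO, and 226.8 and 84.6 CPM in FAP-marker nuclei. Per 100 Myh4 UMIs there were 10.1 Pfkfb3 UMIs (9.58 to 10.6) in Ctrl Myh4 nuclei, 14.9 (7.84 to 26.3) in Ctrl Myh2 nuclei, 15.8 (11.3 to 21.6) in Ctrl Myh1 nuclei and 27.9 (15.9 to 47.0) in Ctrl FAP-marker nuclei, the last 2 above the interval of the Myh4 class. In cKO the numbers were 17.5 (16.7 to 18.4) in Myh4 and 35.8 (22.6 to 55.3) in Myh2 nuclei. Pfkfb3 was also higher in cKO Myh4 nuclei on this scale, which does not use the library total, but by less, and Myh4 itself was 1.41-fold higher (1.37 to 1.44) in cKO nuclei of the class.

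Aldoa (chr7:126795234-126800751, minus strand) encodes aldolase A, which splits fructose 1,6-bisphosphate into triose phosphates. In Ctrl it was at 227.5 CPM in Myh7 (10 UMIs), 206.4 CPM (166.0 to 253.7) in Myh2, 225.1 CPM in Myh1 and 348.0 CPM (333.0 to 363.4) in Myh4 nuclei. In cKO the levels were 91.1 CPM in Myh7, 105.0 CPM (82.5 to 131.8) in Myh2, 179.1 CPM in Myh1 and 265.4 CPM (247.6 to 284.2) in Myh4 nuclei. The cKO level was below the Ctrl level in each of the 4 classes. FAP-marker nuclei read 93.4 CPM (62.1 to 135.0) in Ctrl and 56.4 CPM (20.7 to 122.7) in cKO, so the cKO levels in Myh7 and Myh2 nuclei were not above what nuclei of another cell type showed. Nuclei with Myh2 as main myosin showed the largest gap among the 3 classes of over 100 nuclei in each library, −0.97 (−1.44 to −0.52), which ranked 40 from the lowest of 1582 genes. In Myh4 nuclei the ratio was −0.39 (−0.51 to −0.27), inside 1.5-fold, and the classes differed by 0.58 (0.11 to 1.06). By depth band Aldoa in Myh4 nuclei read 391 CPM against 301 CPM in cKO for 1000 to 2000 UMIs, 359 and 254 CPM for 2000 to 4000 UMIs, and 309 and 166 CPM for 4000 UMIs or more. Nuclei with too few myosin UMIs to place showed the same direction, with 226.2 CPM (201.0 to 253.6) in Ctrl and 132.5 CPM (113.1 to 154.2) in cKO. Exons of Aldoa overlap those of Fam57b on the opposite strand, and the isoform gene Aldoc had 0 UMIs in nuclei with a main myosin of either library.

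Pgk1 (chrX:106187100-106203699, plus strand) encodes phosphoglycerate kinase, the first step of the pathway that returns ATP. It was at 0 UMIs in the 21 Ctrl Myh7 nuclei (up to 83.9 CPM), 20.6 CPM in Myh2 (9 UMIs), 42.9 CPM in Myh1 and 50.5 CPM (44.9 to 56.6) in Myh4 nuclei. In cKO it was at 9.59 CPM in Myh7 (6 UMIs), 19.9 CPM in Myh2, 18.6 CPM in Myh1 and 32.9 CPM (26.9 to 40.0) in Myh4 nuclei. The cKO level was therefore lower in Myh4 nuclei. In Myh1 nuclei 36 and 17 UMIs gave −1.21 (−2.13 to −0.34), which turned to 0.11 when the main myosin was read after thinning to 500 UMIs, and no difference was detectable in Myh2 nuclei (log2 ratio −0.06, −1.37 to 1.33). Over all nuclei with a main myosin the log2 ratio was −0.87 (−1.16 to −0.58), and within Myh4 nuclei −0.62 (−0.95 to −0.29), which is 1.53-fold lower. Relative to the median gene the Myh4 value was −0.56, inside 1.5-fold, and in 6 of 10 other settings, that one included, it was not counted as lower. FAP-marker nuclei read 10.0 CPM in Ctrl (3 UMIs) and 9.40 CPM in cKO (1 UMI), near the level of cKO Myh7 nuclei.

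Pgam2 (chr11:5801640-5803733, minus strand) encodes the muscle form of phosphoglycerate mutase. Outside the Ctrl Myh7 class, where 8 UMIs gave 182.0 CPM, it lay between 27.5 and 47.7 CPM in every class of both libraries, with overlapping intervals throughout. Myh4 nuclei had 44.5 CPM in the Ctrl library and 39.1 CPM in the cKO library (log2 ratio −0.19, −0.51 to 0.13). The Pgam2 level in Ctrl Myh4 nuclei was 1.62-fold that in Myh2 nuclei (12 UMIs), with an interval of 0.910 to 3.17, so that no difference between the libraries or between these classes could be shown at this depth.

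Eno3 (chr11:70657202-70662513, plus strand) encodes β-enolase, the muscle enolase that forms phosphoenolpyruvate. Its Ctrl level was 159.3 CPM in Myh7 (7 UMIs), 178.9 CPM (141.4 to 223.3) in Myh2, 190.6 CPM in Myh1 and 218.6 CPM (206.8 to 230.9) in Myh4 nuclei. In cKO it was 92.7 CPM in Myh7, 119.2 CPM (95.1 to 147.6) in Myh2, 169.3 CPM in Myh1 and 275.1 CPM (256.9 to 294.2) in Myh4 nuclei. The libraries thus differed in opposite directions in the Myh4 and the Myh2 class. Eno3 was higher in cKO by 0.33 (0.21 to 0.46) in the first and at −0.59 (−1.05 to −0.12) in the second. The pooled ratio was 0.02 (−0.09 to 0.13). FAP-marker nuclei read 53.4 CPM (30.5 to 86.7) in Ctrl and 47.0 CPM (15.3 to 109.7) in cKO. The cKO interval overlapped those of cKO Myh2 and Myh7 nuclei, so the size of the Myh2 ratio is uncertain. In Myh2 nuclei Eno3 and Aldoa were the 2 of 6 members past 1.5-fold downwards, as were 11.7% of 1582 genes, and 0 of 6 were past it upwards (3.79%). Relative to the median gene of that class (−0.15) Eno3 was at −0.44 and no longer past 1.5-fold. With the main myosin read after thinning, with 80% for a main myosin and at 1000 to 3000 UMIs per nucleus 0 members were counted as lower, and Aldoa, then under 100 UMIs, had ratios of −0.99, −0.72 and −1.28. The median of the members in Myh2 nuclei was −0.31.

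Pkm (chr9:59656368-59679375, plus strand) encodes pyruvate kinase of muscle. In Ctrl it was at 182.0 CPM in Myh7 (8 UMIs), 105.5 CPM in Myh2, 144.1 CPM in Myh1 and 203.4 CPM in Myh4 nuclei, and in cKO at 92.7, 95.1, 143.1 and 213.4 CPM. Myh4 nuclei had more Pkm than Myh2 nuclei in Ctrl, by 0.95 (0.52 to 1.40), while the 8 UMIs of the Ctrl Myh7 class could not be placed and cKO Myh7 and Myh2 nuclei read alike within their intervals. Within classes the libraries were close, at 0.07 (−0.07 to 0.21) in Myh4 and −0.01 (−0.38 to 0.36) in Myh1 nuclei. Splice forms of Pkm cannot be told apart in these counts per gene.

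Ldha and Ldhb encode the A and B subunits of lactate dehydrogenase, of which the A form is typical of glycolytic muscle and the B form of heart and slow oxidative muscle. Ldha (chr7:46841475-46855627, plus strand) was at 0 UMIs in the 21 Ctrl Myh7 nuclei (up to 83.9 CPM), 29.8 CPM in Myh2 (13 UMIs), 44.1 CPM in Myh1 and 85.4 CPM (78.1 to 93.2) in Myh4 nuclei. In cKO it was at 32.0 CPM in Myh7, 24.1 CPM in Myh2, 47.0 CPM in Myh1 and 82.7 CPM (72.9 to 93.4) in Myh4 nuclei. Ldha was thus highest in Myh4 nuclei and near equal between the libraries in that class, with a log2 ratio of −0.05 (−0.27 to 0.17). FAP-marker nuclei had 16.7 CPM in Ctrl (5 UMIs) and 56.4 CPM in cKO (6 UMIs, 20.7 to 122.7).

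Ldhb (chr6:142490249-142507957, minus strand) had the opposite order. In Ctrl it was at 250.3 CPM in Myh7 (11 UMIs), 172.0 CPM (135.3 to 215.6) in Myh2, 34.6 CPM (23.1 to 49.6) in Myh1 and 3.24 CPM (1.95 to 5.06) in Myh4 nuclei. In cKO it was at 121.5 CPM (95.8 to 152.1) in Myh7, 143.3 CPM (116.8 to 174.2) in Myh2, 43.7 CPM (31.2 to 59.5) in Myh1 and 9.04 CPM (6.01 to 13.1) in Myh4 nuclei. Myh7 and Myh2 nuclei did not differ beyond their intervals in either library, and each step from Myh2 to Myh1 to Myh4 did. FAP-marker nuclei read 6.67 CPM in Ctrl (2 UMIs, 0.81 to 24.1) and 9.40 CPM in cKO (1 UMI, 0.24 to 52.4). On so few UMIs the level in Myh4 nuclei of either library was not told apart from background. In the Myh2 class cKO over Ctrl was −0.26 (−0.71 to 0.19), and in the Myh1 class 0.34 (−0.39 to 1.08). In the Myh4 class, where neither level was told apart from background, 19 and 28 UMIs gave 1.48 (0.59 to 2.40). It was 2.32 (1.23 to 3.53) without the nuclei left out for markers of other cells, so its size is uncertain. Nuclei with too few myosin UMIs to place had 15.5 CPM (9.46 to 23.9) in Ctrl and 49.5 CPM (37.9 to 63.4) in cKO, on 20 and 62 UMIs.

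**Figure D4:**
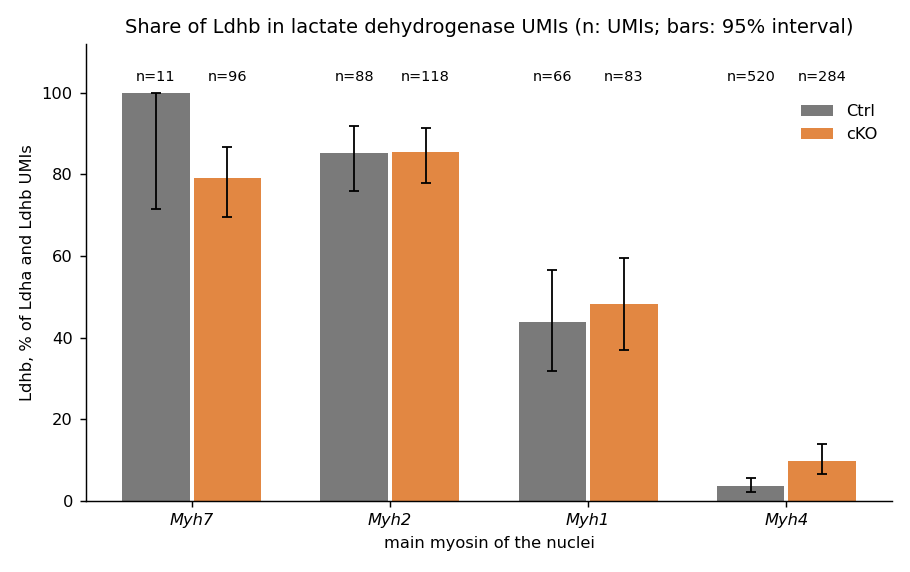
Share of Ldhb among the UMIs of Ldha and Ldhb (percent) by main myosin, for Ctrl and cKO, with exact 95% binomial intervals. The share is 85.2% and 85.6% in Myh2 nuclei and 3.65% and 9.86% in Myh4 nuclei, and over all nuclei with a main myosin it is 19.6% in Ctrl and 42.2% in cKO.

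Of all lactate dehydrogenase UMIs, Ldhb took 85.2% (76.1 to 91.9) in Ctrl and 85.6% (77.9 to 91.4) in cKO Myh2 nuclei, and 43.9% and 48.2% in Myh1 nuclei. In Myh4 nuclei it took 3.65% (2.21 to 5.65) and 9.86% (6.65 to 13.9). Ldhb there was not told apart from a background read on 2 UMIs in Ctrl and 1 UMI in cKO, so no difference is read from these 2 shares. In the 284 cKO Myh7 nuclei the share was 79.2% (69.7 to 86.8). The Ldha interval of every main myosin class except Ctrl Myh4 overlapped that of FAP-marker nuclei, which rests on 5 UMIs in Ctrl and 6 in cKO. The size of the shares in Myh7, Myh2 and Myh1 nuclei is therefore uncertain. Over all nuclei with a main myosin it was 19.6% (16.7 to 22.7) in Ctrl and 42.2% (38.1 to 46.3) in cKO. The pooled shares were farther apart than those of the Myh2 and Myh1 classes. Nuclei with too few myosin UMIs to place had shares of 24.7% (15.8 to 35.5) in Ctrl and 60.2% (50.1 to 69.7) in cKO, which were farther apart than the pooled ones.

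The libraries differed in their mixture of classes, which enters every pooled value. Myh7 and Myh2 nuclei together were 193 of 2538 nuclei with a main myosin in Ctrl (7.60%, 6.60 to 8.71) and 613 of 2497 in cKO (24.6%, 22.9 to 26.3), and Myh4 nuclei supplied 81.6% of the UMIs in Ctrl and 58.0% in cKO. When the cKO classes were given the weights they have in Ctrl, the pooled Ldhb ratio came to 0.23 in place of 1.30 (21.9 against 18.7 CPM), and that of Aldoa to −0.41 in place of −0.63. That of Pfkfb3 went the other way, to 1.27 in place of 0.84, and Pgk1 kept −0.65 of −0.87. The sum of the members became 0.19 in place of −0.01. A share of nuclei by myosin class and the amount of RNA read per nucleus cannot be told apart from differences between the muscles that were pooled.

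**Figure D5:**
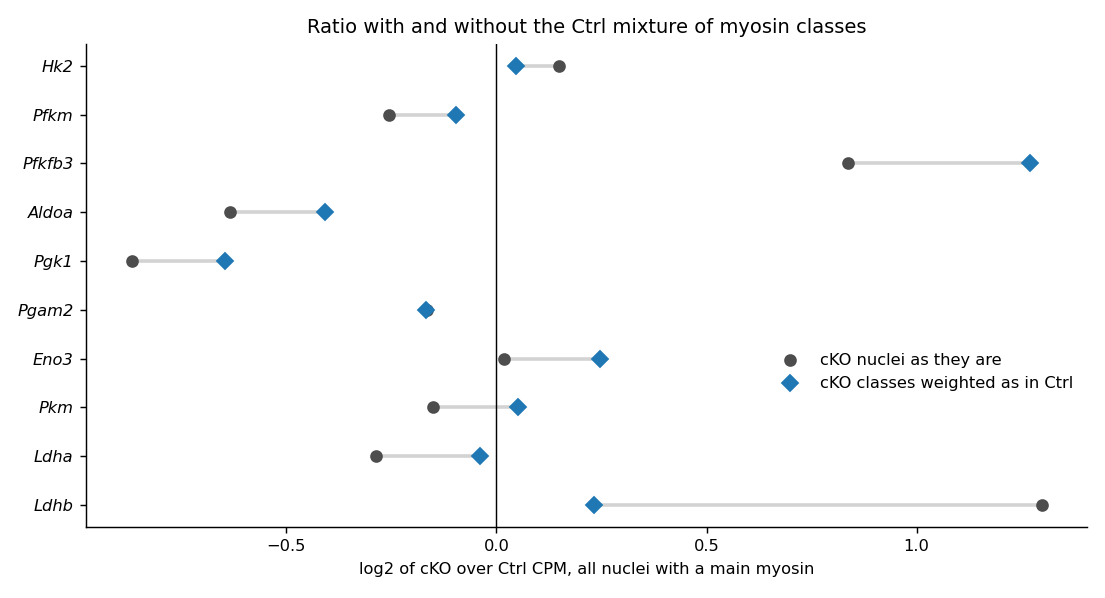
Log2 of the cKO level over the Ctrl level (CPM) in all nuclei with a main myosin, as measured (circles) and with the cKO myosin classes weighted as in Ctrl (diamonds). Ldhb moves from 1.30 to 0.23 and Pfkfb3 from 0.84 to 1.27.

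Other genes of the pathway were read from lists set by role. Among 16 further enzymes of the same steps, 8 were deep enough to compare over nuclei with a main myosin. Bpgm, which makes and removes 2,3-bisphosphoglycerate, read 23.9 CPM in Ctrl against 11.0 CPM in cKO, and Pfkfb4 read 99.7 against 63.8 CPM, both lower by over 1.5-fold (9.43% of all genes). Pfkfb4 came to lie inside 1.5-fold relative to the median gene (−0.56) and with the Ctrl mixture of classes (−0.38). Gapdh, the glyceraldehyde phosphate dehydrogenase, was the 1 enzyme higher by that much (10.7 against 16.3 CPM, with 5.47% of all genes), and many near-identical pseudogenes make its count uncertain. The median log2 ratio of the 8 was −0.17. In Ctrl, 4 of 6 such enzymes were at least 1.5-fold higher in Myh4 than in Myh2 nuclei (23.7% of all genes) and 0 were lower by that much (18.2%). They were Gpi1, the isomerase after hexokinase (525.1 against 250.0 CPM), Tpi1, Bpgm (26.6 against 6.88 CPM) and Pfkfb4. Tpi1, Bpgm and Pfkfb4 had 7, 3 and 23 UMIs in Myh2 nuclei and passed the minimum through the Myh4 class, so that the count does not speak for the list.

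The list for entry and fate of the carbon held 17 genes, 14 of them deep enough to compare, and was led by Pdk4, the kinase that switches off pyruvate dehydrogenase. Pdk4 stood at 623.7 CPM in the Ctrl library and 141.1 CPM in the cKO library, −2.14 on the log2 scale (−2.26 to −2.03). The same direction was read within each class, at −2.25 in Myh4, −2.38 in Myh1 and −2.74 in Myh2 nuclei. FAP-marker nuclei, whose cells keep Net39, also read lower in cKO, at 66.7 CPM (20 UMIs) in Ctrl and 9.40 CPM (0.24 to 52.4, 1 UMI) in cKO. The intervals of these levels overlap, which does not exclude a difference between them. Whether the lower Pdk4 level is particular to fibre nuclei was not tested. Slc16a3, a lactate exporter (66.4 against 39.1 CPM), and Gpd1, the cytosolic glycerol phosphate dehydrogenase (30.5 against 19.7 CPM), were also lower by over 1.5-fold, which makes 3 of 14 against 9.43% of all genes. Gpd1 was inside 1.5-fold relative to the median gene (−0.55), as was Slc16a3 with the Ctrl mixture of classes (−0.51), and within Myh4 nuclei they read −0.35 (−0.73 to 0.02) and −0.53 (−0.81 to −0.26). Pdk1, a kinase of the same family as Pdk4, was the 1 gene of the list that was higher in cKO by that measure (13.4 against 25.1 CPM), against 5.47% of all genes. Its Ctrl level was not above that of FAP-marker nuclei (13.3 CPM, 3.64 to 34.2), so the size of this difference is uncertain. By class Pdk1 read 11.8 and 21.6 CPM in Myh4, 20.3 and 18.6 CPM in Myh1, and 22.9 and 28.4 CPM in Myh2 nuclei of Ctrl and cKO. The median of the 14 was −0.01. By class in Ctrl, 3 of 11 of these genes were 1.5-fold higher in Myh4 than in Myh2 nuclei and 7 were lower, against 23.7% and 18.2% of all genes. The higher ones were Slc16a3, Gpd1 (35.3 against 4.59 CPM) and Gpd2, the mitochondrial glycerol phosphate dehydrogenase (324.3 against 71.1 CPM). They had 13, 2 and 31 UMIs in Myh2 nuclei and passed the minimum through the Myh4 class, so that this count does not speak for the list. Pdha1, a subunit of pyruvate dehydrogenase, was among the lower ones at 22.9 against 77.98 CPM.

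Among 8 transcription factors that act on glycolytic genes, 7 were deep enough, and 0 were past 1.5-fold in either direction between the libraries, against 5.47% of all genes higher and 9.43% lower, with a median of −0.02. Hif1a, the oxygen-regulated subunit of hypoxia-inducible factor, read 47.2 CPM in Ctrl against 65.3 CPM in cKO, 0.47 on the log2 scale (0.25 to 0.69). Within Myh4 nuclei it was at 0.53 (0.24 to 0.82). Myh1 nuclei read 66.7 CPM in Ctrl and 66.6 CPM in cKO, and Myh2 nuclei 107.8 and 82.3 CPM, so the classes did not share 1 direction. In Ctrl Hif1a was lower in Myh4 than in Myh2 nuclei (39.4 against 107.8 CPM), as were Six4 (14.2 against 39.0 CPM) and Mlxipl, and Mlxip was higher. Six4 had 17 UMIs in Myh2 nuclei. These were 3 of 7 lower and 1 of 7 higher by 1.5-fold, against 18.2% and 23.7% of all genes.

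The genes whose level went most closely with the summed members were sought over 11 profiles of class and library among 6299 genes, as a description. They were Ikzf2 (Pearson r of log2 levels 0.97), Atp2a1, the fast-fibre calcium pump (0.94), and Lrrc20 (0.94). The profiles share 2 libraries and the mixture of fibres in them.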

How the data were processed

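snRNA-Seq counts were deposited as 1 filtered matrix per library, of UMI counts per gene and barcode that the authors made with Cell Ranger 3.1.0 on mm10/GRCm38, with default parameters. The annotation release and the handling of introns are not given in the sources used here, the kit is named as version 2 in one source and 3.1 in another, and each title names a single mouse although 3 muscles were pooled. The matrices summed to 10410316 UMIs over 3863 barcodes (Ctrl, median 2106) and 8446070 over 3994 (cKO, median 1662.5), and 0 columns were left unused.

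Barcodes were kept from 100 genes, 500 UMIs and at most 10% mitochondrial UMIs (3833 and 3908 passed). Scrublet in scanpy 1.11.5 called 0 doublets, which is too few to have worked, so the 8% with the highest doublet score were removed from each library (307 and 313). UMIs were summed per library and main myosin class (with mixed and undetermined nuclei kept apart) and divided by the class total. Malat1 supplied 25.5% (Ctrl) and 30.7% (cKO) of the UMIs used. Ratios carry exact conditional intervals, shares exact Clopper-Pearson intervals, and differences between ratios the intervals that follow from both counts. UMIs are counted molecules, and the intervals describe these libraries, not the conditions. A gene was compared when it had 100 UMIs over both sets, and counted as past the fold at 1.5-fold. The code ran under Python 3.11.15 with scipy 1.17.1, numpy 2.4.6, matplotlib 3.10.9 and pandas 2.3.3, positions came from GENCODE M21, and the ratio code was tested on simulated data.

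The members and the lists were chosen with earlier results of these data known. The text names the 10 members, list genes past 1.5-fold with 100 UMIs (up to 6 a comparison, by size), Plpp7, Malat1 and the myosins as checks, and the 3 genes nearest in pattern with 200 UMIs or more over profiles of 50 nuclei or more. Other list genes with values or calls in the text (Pfkfb1, Aldoc, Hk1, Gapdh and Hif1a between libraries, and Gpi1, Tpi1, Pfkfb4, Slc16a3, Mlxip and Mlxipl between classes) were named after their values were seen. The 13 alternatives covered doublets, depth, myosin thresholds, totals, nuclei with markers of other cells, the gene minimum and the fold.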

Additional observations from a re-analysis of the deposited data

Results flagged for a closer look

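Eno3, the muscle enolase, was the 1 gene among the members whose difference between the libraries ran in opposite directions in 2 kinds of nuclei with both intervals clear of 0. Its log2 ratio of cKO over Ctrl was 0.33 in Myh4 nuclei and −0.59 in Myh2 nuclei. The size of the Myh2 ratio is uncertain, because the cKO interval of that class overlapped the one of FAP-marker nuclei. The difference between the ratios was 0.92, with a counting interval of 0.44 to 1.40. Relative to the median gene the Myh2 value was −0.44 (−0.90 to 0.02), and with totals without Malat1 and mitochondrial genes −0.41 (−0.87 to 0.06). With 80% for a main myosin it was −0.48 (−1.12 to 0.15) and at 1000 to 3000 UMIs per nucleus −0.53 (−1.14 to 0.09), so that its interval included 0 under these 4 settings. The difference was not tested in replicates, since each group is 1 library.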

How the results depend on the processing

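No paired analysis was possible because each group is 1 library and no test was run, and for the same reason no replicate could be left out. Of 13 alternatives, 2 (nuclei of 1000 to 3000 UMIs, and cKO classes weighted as in Ctrl) were chosen after seeing the data. Using at least 1000 UMIs per nucleus or at least 5 myosin UMIs moved none of 156 values beyond its counting interval (or 1.5 times for a count of genes), keeping doublets moved 3, and reading the main myosin after thinning to 500 UMIs moved 52 of 153 and reversed 2 more. The reversals were Pgk1 in Myh1 nuclei, cKO over Ctrl, at 0.11, and Pgk1 in Myh4 over Myh1 nuclei of cKO at −0.036, and with Ctrl class weights Pkm over all main myosins came to 0.051.

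The summed members over all main myosins (−0.01) came to 0.081 without Malat1 and mitochondrial genes, 0.072 with each nucleus weighing the same, 0.078 relative to the median gene, 0.050 with 80% for a main myosin, 0.044 at 1000 to 3000 UMIs and 0.19 with Ctrl weights. Pfkfb3 in Myh4 nuclei (1.29) came to 1.43 with nuclei weighing the same, 1.15 thinned and 1.52 at 1000 to 3000 UMIs, and in Ctrl Myh4 over Myh2 nuclei (3.13) to 4.11 at 80%. Aldoa over all main myosins (−0.63) came to −0.50 with nuclei weighing the same and −0.41 with Ctrl weights. Ldhb in Ctrl Myh4 over Myh2 nuclei (−5.73) came to −7.00 at 80% and −6.59 without the nuclei left out for markers of other cells. In these ratios between classes one side was, for Pfkfb3, not above the level of FAP-marker nuclei and, for Ldhb, not told apart from background. The share of Ldhb among lactate dehydrogenase UMIs in Ctrl Myh4 nuclei (3.65%) came to 0% thinned and 1.78% at 80%. Without the nuclei left out for markers of other cells it came to 2.11%. In cKO Myh4 nuclei (9.86%) it came to 15.7% with doublets kept, 3.37% thinned and 4.82% at 80%. In cKO Myh2 nuclei (85.6%) it came to 76.0% thinned. The genes past 1.5-fold over all main myosins (398 higher, 686 lower) became 190 and 267 thinned, 914 and 1705 with a minimum of 20 UMIs, and 172 and 247 at 2-fold, and the lower ones 381 at 1000 to 3000 UMIs. The cause of these shifts was not tested, except that a lower minimum admits more genes, a larger fold fewer, and thinning and narrower nuclei leave fewer UMIs. Counts of Myh7 nuclei (21 in Ctrl) and of members under 100 UMIs set the limit of what could be compared.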
